A study of Mus musculus with 15 samples.

Results

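Enteroendocrine cells, the hormone-secreting cells of the gut lining, were picked out of single-cell RNA sequencing of the mouse intestine by their own transcripts. A cell was taken as enteroendocrine when it carried at least 1 unique molecular identifier (UMI, a tag that marks 1 captured RNA molecule) for 3 or more of the 6 genes Chga, Chgb, Neurod1, Rfx6, Scgn and Pcsk1n and when these 6 genes together made up at least 0.1% of its UMIs. This rule found 427 of 18919 cells (2.26%): 152 in the proximal small intestine, 194 in the distal small intestine and 81 in the colon. The cells came from 5 mice aged 6 months, 2 on a control diet with 10% of its kcal from fat and 3 on a high fat diet with 60%, and every mouse gave 1 library for each of the 3 organs. All of the mice, controls included, carried Lgr5-eGFP-IRES-CreERT2, an allele that puts a green fluorescent protein and an inducible Cre into the locus of Lgr5, a gene of intestinal stem cells. Seq-Well with second strand synthesis, which catches single cells with barcoded beads in small wells, was used for every library.

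Enteroendocrine cells arise from crypt stem cells when low Notch signalling lets a cell switch on the transcription factor Neurog3. This factor in turn switches on Neurod1 and the rest of the endocrine programme. The mature cells store peptide hormones or serotonin in granules and release them when nutrients or other stimuli reach their receptors and ion channels. Textbook classes are named after their leading products: enterochromaffin cells make serotonin, K cells make GIP, L cells make GLP-1 and PYY, and other classes make CCK, secretin, ghrelin, somatostatin or neurotensin.

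The counts that chose the cells are given as a description. Neurod1, a transcription factor of the lineage, had a UMI in 97.2% of the enteroendocrine cells and in 0.930% of the 18492 other cells. Chgb and Chga, the granule proteins chromogranin B and A, were found in 96.3% and 94.4% against 16.3% and 7.90%. Rfx6, a transcription factor, was found in 78.5% against 0.860%, the calcium-binding protein Scgn in 47.8% against 0.379%, and Pcsk1n, an inhibitor of prohormone processing, in 43.3% against 0.222%. By number of the 6 genes, 64 cells had 3, 125 had 4, 167 had 5 and 71 had all 6. The 6 genes took a median of 2.30% of the UMIs of a chosen cell, and the lowest chosen cell held 0.107%. Just outside the rule lay 28 cells with 3 or more of the genes but a share of at most 0.0994%, and 71 cells with exactly 2 of the genes and a share above the limit.

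Markers that the rule did not use were checked against the label. All 16 of 16 further enteroendocrine markers, among them Cpe, Scg3, Pax6 and Insm1, were higher in the chosen cells, and their summed level ran from 4219 to 7592 UMIs per 1000000 UMIs of the summed cells (CPM) over the 13 libraries with at least 10 chosen cells, against 39.7 to 142 CPM in the other cells. Goblet cell markers summed to 258 to 7785 CPM against 2152 to 15896 CPM, stem cell markers to 75.1 to 2351 against 1140 to 6664 CPM, and markers of dividing cells to 11.6 to 742 against 945 to 2521 CPM, each lower in all 13 libraries. Absorptive markers overlapped, at 1500 to 3992 against 1568 to 5369 CPM, and so did Paneth markers, at 7.23 to 1975 against 36.7 to 7944 CPM. The absorptive sum was higher in the chosen cells in 6 of 13 libraries. These were every distal library (2775 to 3992 against 1685 to 2622 CPM) and the colon of control mouse 1. By median over libraries, 2 of the 12 absorptive markers were higher in the chosen cells and 8 lower. Tuft markers summed to 3.86 to 53.7 CPM with 5 of 9 at a median of 0, T cell markers to 11.1 to 476 CPM with 3 of 10 at a median of 0, B and plasma cell markers to at most 69.8 CPM, and myeloid markers to 11.6 to 520 CPM. In the other cells these sums ran from 34.2 to 173, 64.3 to 449, 5.43 to 353 and 96.2 to 956 CPM. The chosen cells were higher in 1, 2, 1 and 2 of 13 libraries. T cell markers lay at 476 against 82.5 CPM in the proximal library of high fat mouse 2 and at 377 against 158 CPM in the distal one of control mouse 2. Of the endothelial markers, 1 of 2 was found, and their sum of 5.54 to 51.2 CPM lay above the 0.290 to 5.72 CPM of the other cells, while the 1 mesenchymal marker measured was at 0. The part of these other-cell transcripts in the results was not tested. The authors' table called 35 of the cells (8.20%) stem cells, against 24.8% of the other cells.

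The chosen cells were about as deep as the rest, with a median of 12404 UMIs against 13336.5. Their summed UMIs ran from 62108 to 1176263 per library among the 13 libraries that entered the fits. The high fat colon was thinly filled: mouse 1 gave 0 enteroendocrine cells, mouse 2 gave 5, and mouse 3 alone entered the fits, where its lone library was assumed to vary like the other groups. Libraries shared 16 barcodes (37 cells), and 0 of these cells were enteroendocrine. As a rough gauge of RNA from other cells, shares of cells with a UMI are set beside those in 1210 cells, called T and B cells below. These had UMIs for at least 2 of 8 T and B cell genes and a median depth of 5492.5 UMIs. Their pooled counts also held 5004 CPM of goblet, 2522 of absorptive, 2243 of stem and 1495 of dividing cell markers. The library medians of all other cells were 3527, 2975, 3950 and 1603 CPM. How many of the T and B cells were epithelial or mixed cells was not tested. Each mouse counted as 1 replicate of its diet.

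Enteroendocrine cells made up 1.90 ± 0.403% of the cells of the proximal small intestine (mean ± SD, n = 5 mice), 2.92 ± 0.812% of the distal small intestine and 1.72 ± 1.48% of the colon. The proximal shares were 1.70% and 1.35% for control mice 1 and 2 and 1.85%, 2.36% and 2.22% for high fat mice 1, 2 and 3. In the same order of mice, the distal shares were 1.85% and 2.72%, then 2.56%, 3.76% and 3.70%, and the colonic ones 0.803% and 2.44%, then 0%, 1.54% and 3.81%. All 5 mice had a higher share in the distal than in the proximal small intestine, while the colon was the most uneven organ. With 2 genes of the rule high fat mouse 1 went the other way (3.35% distal, 4.82% proximal), and with 4 genes control mouse 1 had 1.57% and 1.58%. The 3 organ labels permuted within mice gave an exact p of 0.101. The distal share exceeded the proximal share by 1.02 percentage points (exact sign-flip test over 5 mice, two-sided p = 0.062, the smallest this design can give, adjusted p = 0.188). The colon differed from the proximal small intestine by -0.178 points (exact sign-flip p = 0.8125, adjusted p = 0.8125) and from the distal small intestine by -1.20 points (exact sign-flip p = 0.125, adjusted p = 0.188). With every cell thinned to 3000 UMIs the organ means were 1.61%, 2.81% and 1.63%.

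By diet, the share was 1.53 ± 0.245% in control (n = 2) and 2.14 ± 0.260% in high fat mice (n = 3) in the proximal small intestine, where the groups did not overlap. With every cell thinned to 3000 UMIs they overlapped (1.58% and 1.25% against 1.28%, 1.91% and 2.04%), and the proximal difference fell to 0.327 percentage points. It was 0.0157 points with 4 genes of the rule and 1.55 points with 2. Without thinning, the share was 2.29 ± 0.616% against 3.34 ± 0.679% in the distal small intestine and 1.62 ± 1.16% against 1.78 ± 1.92% in the colon, where the groups overlapped. The differences were 0.616, 1.05 and 0.164 percentage points (exact permutation p = 0.2, 0.4 and 1.0, two-sided, adjusted p = 0.533, 0.533 and 1.0), and 2 mice against 3 cannot give a p below 0.2. The mean over the 3 organs differed by 0.611 points (exact permutation p = 0.4, adjusted p = 0.533). No difference in the share of enteroendocrine cells between diets was therefore detectable with these mice.

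**Figure D1:**
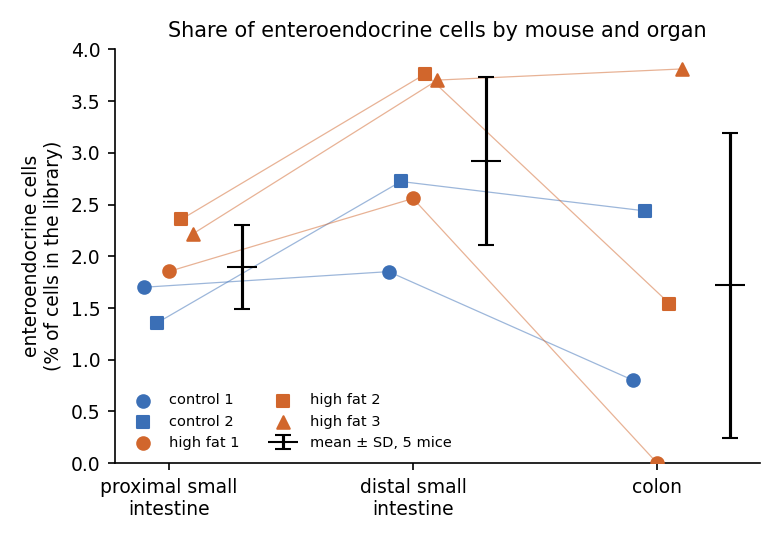
Percent of the cells of each library that met the enteroendocrine rule (y axis) by organ (x axis), 1 point per mouse, with blue for control and orange for high fat diet mice and a bar at the mean of the 5 mice. The 5 proximal values sit between 1.35% and 2.36% and the 5 distal values between 1.85% and 3.76%, while the colon runs from 0% to 3.81%.

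Against the other cells of the same libraries, the enteroendocrine cells were set apart by genes inside and outside the rule. Since the cells were chosen by their counts, these ratios are a description without a test, and 13.8% of 14166 genes lay more than 2-fold higher and 15.6% more than 2-fold lower on the log2 scale with 1 CPM added, around a median over all genes of -0.10. Of the 15 genes with the highest median ratio over libraries, Chgb (10.61), Chga (9.62) and Neurod1 (8.23) belong to the rule. The other 12 were Cpe (9.19), which trims prohormones, Tph1 (9.07), the enzyme that starts serotonin synthesis, Tac1 (8.81), the precursor of substance P, Map1b (8.77), a microtubule protein of neurons, Cck (8.64), Scn3a (8.56), a voltage-gated sodium channel, Rab3c (8.25), a protein of secretory vesicles, Fev (7.82) and Lmx1a (7.51), transcription factors known from serotonin neurons, Scg3 (7.76), a granule protein, Gng4 (7.28), a G protein subunit, and Nefm (7.26), a neurofilament. Cpe lay at 638 to 1904 CPM in the enteroendocrine cells of the 13 libraries against 0.469 to 7.82 CPM in the other cells, so the groups did not overlap in any library.

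The fixed gene lists placed this profile. Among the transcription factors of the lineage 23 of 26 lay more than 2-fold higher (list median log2 ratio 6.00), among the granule and prohormone-processing proteins 15 of 17 (6.73), among the exocytosis genes 17 of 19 (4.77), among the ion channels 9 of 14 (4.18) and among the genes of serotonin synthesis and storage 5 of 7 (3.50). In these lists 2 serotonin genes and 1 exocytosis gene lay more than 2-fold lower. Of 16 hormone genes listed 14 were measured, and 8 of these lay more than 2-fold higher (5.98); Gast and Penk were not measured. These counts include genes of the rule, Neurod1 and Rfx6 among the transcription factors and Chga, Chgb, Pcsk1n and Scgn among the granule proteins, whose excess the choice of cells fixes. Only 6 of 16 nutrient and signal receptors passed that bound (0.31). Pcsk2, the prohormone convertase of pancreatic alpha cells, was listed at 0 in the enteroendocrine cells of all 13 libraries. On the lower side lay 5 of 9 Notch genes, among them Hes1, the Notch target that holds endocrine fate back, while 1 of the 9 was higher. Of the lipid absorption genes 9 of 16 lay more than 2-fold lower and 2 more than 2-fold higher (-1.31). Of the PPAR targets and fatty acid oxidation genes 8 of 37 lay lower and 3 higher by that bound (-0.62). Over all genes the shares were 15.6% lower and 13.8% higher.

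The genes for substance P and serotonin were found in enteroendocrine cells of every organ. Tac1 (chr6:7554879-7565834) had a UMI in 60.5% of the proximal, 49.0% of the distal and 66.7% of the colonic enteroendocrine cells, against 4.59%, 3.59% and 3.37% of the T and B cells. Tph1 (chr7:46644641-46672537) was found in 53.3%, 40.7% and 56.8%, against 1.41%, 0.299% and 0.843% of the T and B cells. The enteroendocrine cells, 2.26% of all cells, held 96.2% of all Tph1 UMIs and 85.9% of all Tac1 UMIs in the data. By organ they held 94.1% of the proximal, 87.9% of the distal and 50.4% of the colonic Tac1 UMIs. Of the cells that were neither enteroendocrine nor T and B cells, 2.65%, 4.76% and 10.8% had a Tac1 UMI. The colonic T and B cells had a median depth of 4061 UMIs.

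In the proximal small intestine Tph1 lay at 1103 and 985 CPM in the control mice 1 and 2 and at 33.3, 1214 and 1371 CPM in the high fat mice 1, 2 and 3. In the distal small intestine it lay at 844 and 339 against 588, 829 and 513 CPM, and in the colon at 821 and 2689 CPM in the control mice and at 1328 CPM in the high fat mouse 3. The proximal library of high fat mouse 1, with 20 enteroendocrine cells, stood below all others, and it was also the lowest proximal library for Tac1 (377 CPM against 1903 to 3315 CPM), Cck (188 against 1113 to 6277 CPM) and Gcg (5.54 against 313 to 3665 CPM). The 6 genes of the rule summed to 6952 CPM in its enteroendocrine cells against 39586 to 41876 CPM in the other proximal libraries, and to 198 CPM in its other cells against at most 24.6 CPM in those of the other proximal libraries. Of its 20 cells 6 had 4 or more genes of the rule. The part of these differences in its values was not tested. Neither Tph1 nor Tac1 passed the test between any pair of organs in the edgeR fits, at log2 differences of -0.63 and -0.30 from the proximal to the distal small intestine. With the mouse as a block, Tac1 was called lower in the colon than in the proximal small intestine (-1.34, adjusted p = 0.0475).

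Of the L cell hormone genes, Pyy and Insl5 were listed at 0 in the proximal small intestine, while Gcg was found in every organ. Gcg (chr2:62474530-62483650), the precursor of GLP-1, had a UMI in 10.5% of the proximal, 31.4% of the distal and 30.9% of the colonic enteroendocrine cells (T and B cells 1.06%, 7.49% and 2.19%). Pyy (chr11:102106676-102107832), whose peptide slows the gut, was found in 23.2% of the distal and 34.6% of the colonic cells and was listed at 0 in all proximal libraries. Insl5 (chr4:103017872-103026842), an insulin-like peptide of colonic L cells, was found in 25.9% of the colonic cells (exact 95% interval 16.8% to 36.9%, counting error only) and was listed at 0 in the small intestine. Since the deposited table seems to lack genes seen in few cells of a library, a 0 sets no limit on the level and no fold is given against it.

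The promoters of these 3 genes are shown because they encode the L cell hormones compared between the organs here. Each is the 250 bases before a RefSeq start site (GRCm38.p6), read 5′ to 3′ along the gene's minus strand, with capitals marking every match to CANNTG, the E-box letters that Neurod1 and related factors can bind. Insl5 and Pyy have 2 such sites each, and the site nearest to the GENCODE start is shown. The window of the other Insl5 site had 2 CANNTG matches and 0 of CAGATG or CATCTG. The windows lie at chr2:62483654-62483903 for Gcg, chr4:103026729-103026978 for Insl5 and chr11:102107833-102108082 for Pyy.
Gcg: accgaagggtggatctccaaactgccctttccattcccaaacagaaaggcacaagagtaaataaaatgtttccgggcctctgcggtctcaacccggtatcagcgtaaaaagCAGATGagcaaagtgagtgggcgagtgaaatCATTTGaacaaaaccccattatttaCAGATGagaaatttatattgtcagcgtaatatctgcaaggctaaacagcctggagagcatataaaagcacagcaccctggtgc
Insl5: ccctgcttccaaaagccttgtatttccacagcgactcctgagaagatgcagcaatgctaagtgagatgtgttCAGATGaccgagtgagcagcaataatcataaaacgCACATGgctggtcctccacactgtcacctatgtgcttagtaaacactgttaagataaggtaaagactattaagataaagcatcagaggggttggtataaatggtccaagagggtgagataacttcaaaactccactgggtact
Pyy: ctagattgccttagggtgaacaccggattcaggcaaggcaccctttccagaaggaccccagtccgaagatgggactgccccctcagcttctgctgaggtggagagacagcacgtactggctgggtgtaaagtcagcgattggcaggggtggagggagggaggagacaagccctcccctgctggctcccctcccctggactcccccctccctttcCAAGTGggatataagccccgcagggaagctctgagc
The CANNTG letters, which read the same on both strands, occurred 3 times for Gcg, 2 times for Insl5 and once for Pyy. They were present in 66.2% of 32851 promoter windows of that length, so a match is common, and matches are letters only. The variant CAGATG or its reverse complement CATCTG, which is contained in CANNTG, was present in 14.4% of all windows.

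Pyy lay at 689 and 931 CPM in the distal enteroendocrine cells of the control mice 1 and 2 and at 789, 424 and 592 CPM in the high fat mice 1, 2 and 3. In the colon it lay at 3655 and 1346 CPM in the control mice and at 5037 CPM in the high fat mouse 3, so each of the 3 colonic libraries with at least 10 cells was above every distal one, while the 5 colonic cells of high fat mouse 2 had no Pyy UMI. The colon exceeded the distal small intestine by 2.31 on the log2 scale (SE 0.36, adjusted p = 0.00153, edgeR quasi-likelihood test). This call was lost without high fat mouse 3 (adjusted p = 0.249) and with a minimum of 5 cells per library (adjusted p = 0.0862). Against the proximal libraries at 0, Pyy was also called in the distal small intestine (adjusted p = 1.08e-06) and the colon (adjusted p = 6.94e-08). Insl5 was called in the colon against the proximal (adjusted p = 2.49e-06) and the distal small intestine (adjusted p = 8.39e-06). Its colonic level was 1369 and 433 CPM in the control mice 1 and 2 and 4554 CPM in the high fat mouse 3. These Insl5 levels came from 3, 3 and 15 cells, and 3 cells held 68.9% of the colonic UMIs. In control mouse 2, 1 cell held 96% of the Insl5 UMIs.

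Gcg lay at 1301 ± 1479 CPM in proximal (mean ± SD, n = 5), 6539 ± 3429 CPM in distal (n = 5) and 8826 ± 7070 CPM in colonic enteroendocrine cells (n = 3). Its proximal values ran from 5.54 to 3665 CPM, and 3 proximal cells held 76.1% of the proximal UMIs. The log2 differences from the proximal small intestine, 2.58 for the distal small intestine (adjusted p = 0.182) and 3.02 for the colon (adjusted p = 0.0564), did not pass the test, and the distal values of 2404 to 10914 CPM overlapped both neighbours. Nts, the precursor of neurotensin, was listed at 0 in the proximal and in 2 of 5 distal libraries and reached 3501, 3711 and 471 CPM in the rest. Those levels came from 6, 2 and 2 cells, and 3 cells held 70.0% of the distal Nts UMIs. Nts was called higher in the distal than in the proximal small intestine (adjusted p = 0.0119), but not without high fat mouse 2 or 3 (adjusted p = 0.0964 and 0.0654) or with a robust prior on the spread (0.344). In the colon against the proximal small intestine Nts was called only with the mouse as a block (adjusted p = 0.00145).

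Gip and Ucn3 were listed at 0 in the colonic enteroendocrine cells, and Ghrl was lower there than in the proximal small intestine. Gip (chr11:96024545-96030831), the incretin of K cells, had a UMI in 13.2% of the proximal and 21.6% of the distal cells but in none of the colonic ones. It lay at 0 and 3718 CPM in the proximal cells of the control mice 1 and 2, at 1807, 2299 and 4664 CPM in those of the high fat mice, and at 48.6 to 4635 CPM in the distal libraries, so the small-intestinal organs overlapped. In the proximal library of high fat mouse 2, 1 of 2 cells with Gip held 99.9% of its UMIs. In that of high fat mouse 1, 1 of 6 held 85.0%. Over the organ, 3 cells held 56.4% of the proximal and 41.0% of the distal Gip UMIs. Of the T and B cells 8.13% in the proximal and 5.39% in the distal small intestine had a Gip UMI. Ucn3, urocortin 3, was found in 20.4% of the proximal (31 cells), 4.64% of the distal (9 cells) and none of the colonic cells. Ghrl, the precursor of ghrelin, was found in 21.7%, 20.1% and 9.88% and lay at 2611 ± 1673 CPM (n = 5), 1136 ± 989 CPM (n = 5) and 254 ± 379 CPM (n = 3). Of the T and B cells 7.77%, 1.80% and 0.169% had a UMI. In the colon Ghrl lay at 0 and 690 CPM in the control mice 1 and 2 and at 72.3 CPM in the high fat mouse 3, and 3 cells held 94.5% of its colonic UMIs.

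Against the proximal small intestine, Ghrl fell by 3.93 on the log2 scale in the colon (SE 0.87, adjusted p = 0.00701, edgeR), and Gip (adjusted p = 0.00565) and Ucn3 (adjusted p = 0.00844) were called lower there. Against the distal small intestine, Gip was called lower in the colon (adjusted p = 0.0110), and Ghrl only with the mouse as a block (-2.77, adjusted p = 0.0380). The 4 colonic calls of the fit without the block were lost without high fat mouse 3 (adjusted p from 0.139 to 0.233) and with a robust prior on the spread (0.0796 to 0.175), and that of Ucn3 also in DESeq2 (0.068). Ucn3 fell by 2.95 from the proximal to the distal small intestine (SE 0.69, adjusted p = 0.0312), a call lost without control mouse 1 (0.072), control mouse 2 (0.117) or high fat mouse 2 (0.34), without doublets (0.0506), with a robust prior (0.264) and in DESeq2 (adjusted p = 0.547).

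Secretin and CCK spanned the small intestine. Sct had a UMI in 64.5% of the proximal, 81.4% of the distal and 46.9% of the colonic enteroendocrine cells (T and B cells 3.89%, 8.08% and 2.36%), but only 59.8% of its UMIs lay in enteroendocrine cells. Its level was even between libraries, at 509 to 774 CPM in the proximal and 817 to 1412 CPM in the distal small intestine, which did not overlap, and at 242, 702 and 266 CPM in the colon. Sct fell by 1.35 from the distal small intestine to the colon (SE 0.34, adjusted p = 0.0329), a call lost without control mouse 1 (0.095), high fat mouse 2 (0.0597) or high fat mouse 3 (0.47), with a minimum of 20 cells (0.106) and with 4 genes of the rule (0.0699). The difference of 0.59 between the small-intestinal organs did not pass (adjusted p = 0.445). Cck was found in 34.9%, 49.5% and 22.2%, at 2280 ± 2364, 1237 ± 713 and 436 ± 251 CPM (mean ± SD, n = 5, 5 and 3), and its differences between organs did not pass (colon minus proximal -2.31, adjusted p = 0.0611). Sst, the precursor of somatostatin, was found in 4 proximal, 16 distal and 1 colonic cell, and Iapp, amylin, in 1, 23 and 0. The proximal share for Sst, 2.63%, lay below the 4.59% of the T and B cells, and 3 cells held 99.9% of its proximal and 80.4% of its distal UMIs. Of the distal Iapp UMIs 3 cells held 90.0%. With the mouse as a block, Sst was called lower in the colon than in the distal small intestine (-6.14, adjusted p = 0.0213), and Iapp was called in all 3 pairs of organs (adjusted p from 0.00117 to 0.0377), with its proximal level from the 1 cell. Ppy and Gal were found in 1 and 2 enteroendocrine cells in all.

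**Figure D2:**
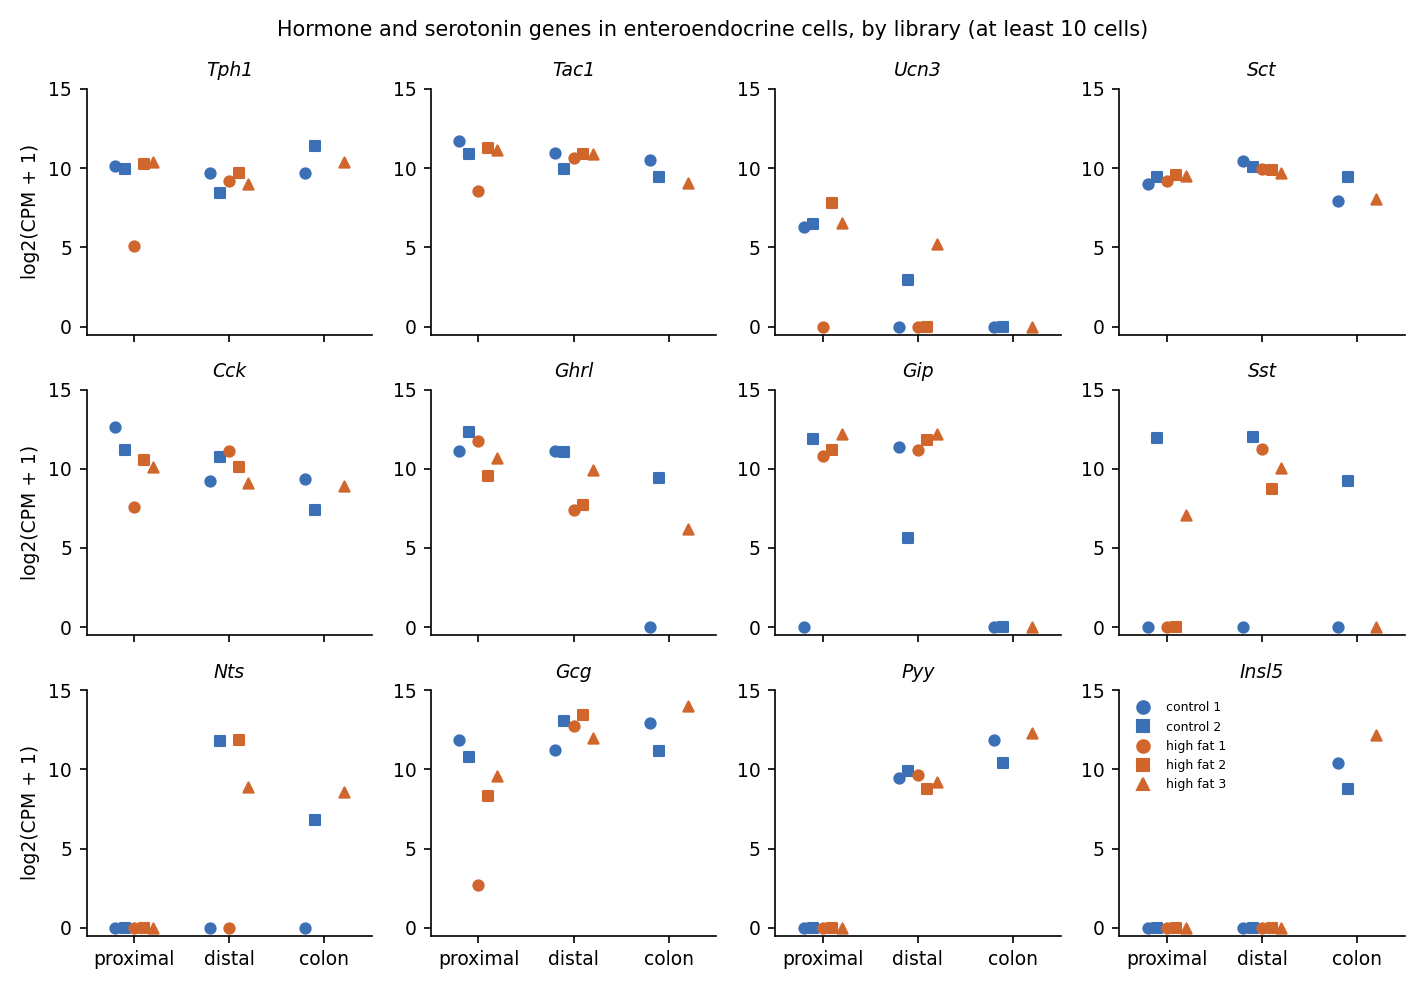
Level of 12 hormone and serotonin genes in enteroendocrine cells, as log2(CPM + 1) of UMIs summed per library (y axis), by organ (x axis), 1 point per library with at least 10 such cells, with colour for diet and shape for the mouse number. Pyy and Insl5 are at 0 in every proximal library and Gip and Ucn3 in every colonic one, and the proximal library of high fat mouse 1 is the lowest of its organ for Tph1, Tac1, Cck and Gcg.

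Most enteroendocrine cells carried several products. Of 15 product genes (the 14 hormones and Tph1), 20 cells had none, 34 had 1, 77 had 2, 118 had 3, 111 had 4 and 67 had 5 or more. Free RNA and cells caught together can add products, and 13 of the 427 cells (3.04%) were called doublets by Scrublet against 1.28% of all cells. To hold depth constant, each cell was thinned to 3000 UMIs, which left 419 cells. Of these, 48 had no product, 44 had 1, 121 had 2, 103 had 3, 68 had 4 and 35 had 5 or more.

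Some products were often found in the same cells. Of 185 thinned cells with Tph1, 91.9% also had Tac1, against 11.5% of the cells without Tph1, and 3.24% had Gcg, against 33.8%. Of 23 cells with Ucn3, 21 had Tph1 and 21 had Tac1, while 0 had Cck. Serotonin, substance P and urocortin 3 transcripts thus shared their cells. Of 85 cells with Gcg, 88.2% also had Cck (against 15.9% of cells without Gcg), 76.5% had Sct and 54.1% had Pyy (against 4.19%), while 10.6% had Tac1 (against 56.3%). All but 1 of 20 cells with Insl5 had Pyy, 18 had Gcg, 17 had Cck and 6 had Nts. Sct spanned these sets: of 206 cells with Sct, 41.3% had Tac1, 40.8% had Tph1 and 31.6% had Gcg, and it was found in 45.4% of the cells with Tph1, 43.1% of those with Tac1 and 60.9% of those with Ucn3. Ghrl and Gip were seldom found together: of 64 cells with Ghrl 42.2% had Cck and 42.2% had Gcg, but 1.56% had Gip, and of 42 cells with Gip 57.1% had Cck and 2.38% had Ghrl. These shares are over cells pooled from all libraries and carry no test.

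**Figure D3:**
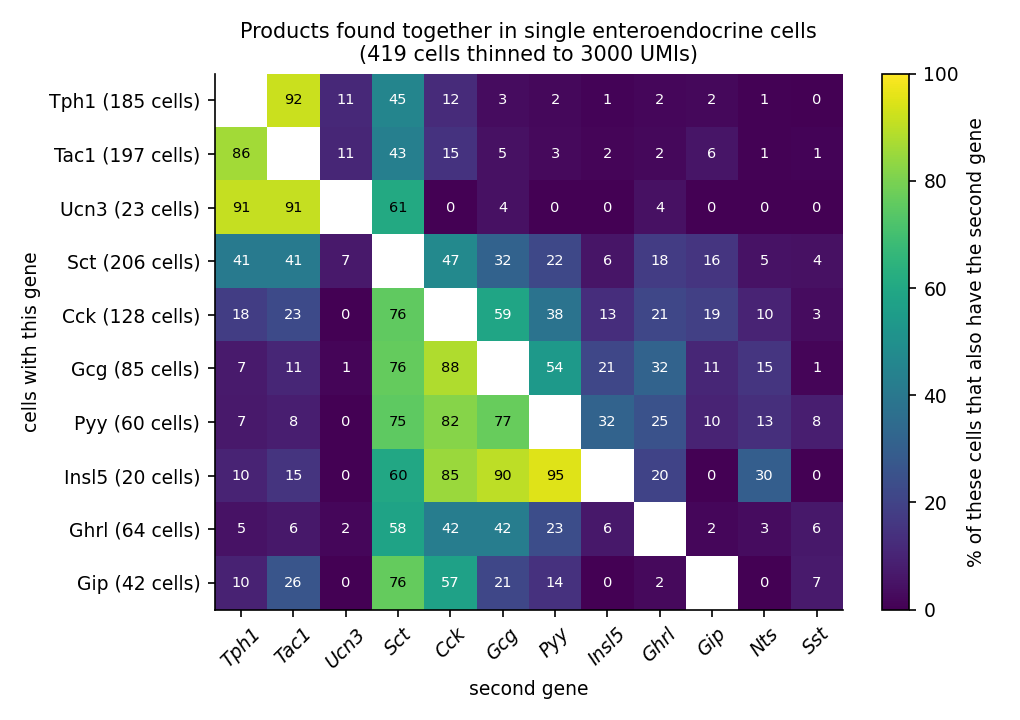
Percent of the enteroendocrine cells with a UMI of the gene in the row that also had a UMI of the gene in the column, over 419 cells thinned to 3000 UMIs. Most cells with Ucn3 or Tph1 had Tac1 and most cells with Gcg, Pyy or Insl5 had Cck, while Sct was found with products of both kinds.

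Each cell was then assigned to the product gene with most UMIs in it; each UMI counts 1 molecule, so levels were not divided by length. Tac1 led 157 of the 427 cells, Gcg 52, Tph1 45, Ghrl 40, Gip 36, Cck 24, Sct 23, Sst 12, Pyy 7, Nts 6, Ucn3 3 and Insl5 2, and 20 had no product. Where it led, Nts took a median of 5.05% of the cell's UMIs, Gcg 3.12% (up to 10.6%), Sst 2.10% (up to 11.7%) and Gip 2.08%, whereas Tac1 took 0.435% and Tph1 0.310%. These 4 hormones filled far more of their cells' transcripts than Tac1 or Tph1 did of theirs, whereas Cck (0.303%), Pyy (0.0532%) and Sct (0.0465%) took less where they led. Tac1 led 46.1% of the proximal, 36.6% of the distal and 19.8% of the colonic cells, Tph1 led 5.92%, 2.06% and 39.5%, Gcg 1.32%, 18.6% and 17.3%, Gip 7.89%, 12.4% and 0%, and Ghrl 12.5%, 10.3% and 1.23%. Summed over Tac1 and Tph1, the leading share ran from 35.0% to 58.5% of the cells of the 5 proximal, 30.2% to 45.7% of the 5 distal and 54.8% to 63.6% of the 3 larger colonic libraries. Organs overlapped by this measure except for the distal small intestine and the colon.

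The 202 cells led by Tac1 or Tph1 and the 205 led by another peptide hormone gene, called peptide-led below, also differed in genes outside the products. The values below are medians over the 12 libraries with at least 5 cells of each class, as a description, since the class is set by the same cells' counts. Chgb and Chga are genes of the rule, so the choice of cells also acted on their levels. Chgb lay at 43611 CPM in the cells led by Tac1 or Tph1 against 8564 CPM (higher in 12 of 12 libraries) and Chga at 11979 against 1236 CPM (11 of 12). Among transcription factors, Lmx1a lay at 430 against 9.67 CPM and Fev at 441 against 195 CPM (each higher in 12 of 12 libraries), and Pax4 at 118 against 52.6 CPM (11 of 12). Slc18a1, which loads serotonin into granules, lay at 385 against 52.4 CPM (12 of 12), and Ddc, the second enzyme of serotonin synthesis, at 2015 against 1036 CPM (11 of 12). These genes of the serotonin pathway thus followed Tph1 in nearly every library. The irritant channel Trpa1 lay at 120 against 1.61 CPM, higher in all 8 libraries where the classes differed.

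The peptide-led cells carried another set of regulators and granule proteins. Isl1 lay at 656 CPM in them against 6.86 CPM, Etv1 at 146 against 5.86 CPM, Scg2 at 974 against 11.3 CPM, Cpe at 2167 against 1181 CPM and Scgn, a gene of the rule, at 776 against 18.8 CPM, each higher in 12 of 12 libraries. Pax6 lay at 367 against 88.4 CPM (11 of 12). Neurod1, a gene of the rule, at 793 against 784 CPM, and Insm1, at 424 against 394 CPM, were higher in each class in 6 of 12 libraries. Fev overlapped between the classes, at 223 to 724 CPM in the cells led by Tac1 or Tph1 and 69.2 to 490 CPM in the peptide-led ones. Tox3 was higher in the peptide-led cells in 11 of 12 libraries and Runx1t1 in the cells led by Tac1 or Tph1 in 11 of 12.

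Within the peptide-led cells some genes differed by leading product. Hhex, a regulator known from somatostatin cells, lay at 720 CPM in the 12 cells led by Sst, with a UMI in all 12, at 43.3 CPM in the Gip-led cells (8 of 36 with a UMI) and at 0 CPM in those led by Gcg, Cck or Ghrl. The lipid receptor Gpr119 lay at 140 CPM in the Gcg-led and 137 CPM in the Gip-led cells, and at 0 CPM in the Sst-led ones. The cannabinoid receptor Cnr1 lay at 568 CPM in the Gip-led cells and at 0 CPM in the Gcg- and Ghrl-led ones. Etv1 lay at 539 CPM in the Gcg-led, 168 CPM in the Cck-led and 102 CPM in the Gip-led cells. Reg4, a secreted lectin, cut across the classes, at 3617 CPM in the Tac1-led, 4676 CPM in the Tph1-led and 3795 CPM in the Gcg-led cells but at most 41.5 CPM in the cells led by Cck, Gip, Ghrl, Sct or Sst. These are counts summed over all libraries, so they carry no spread between mice.

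**Figure D4:**
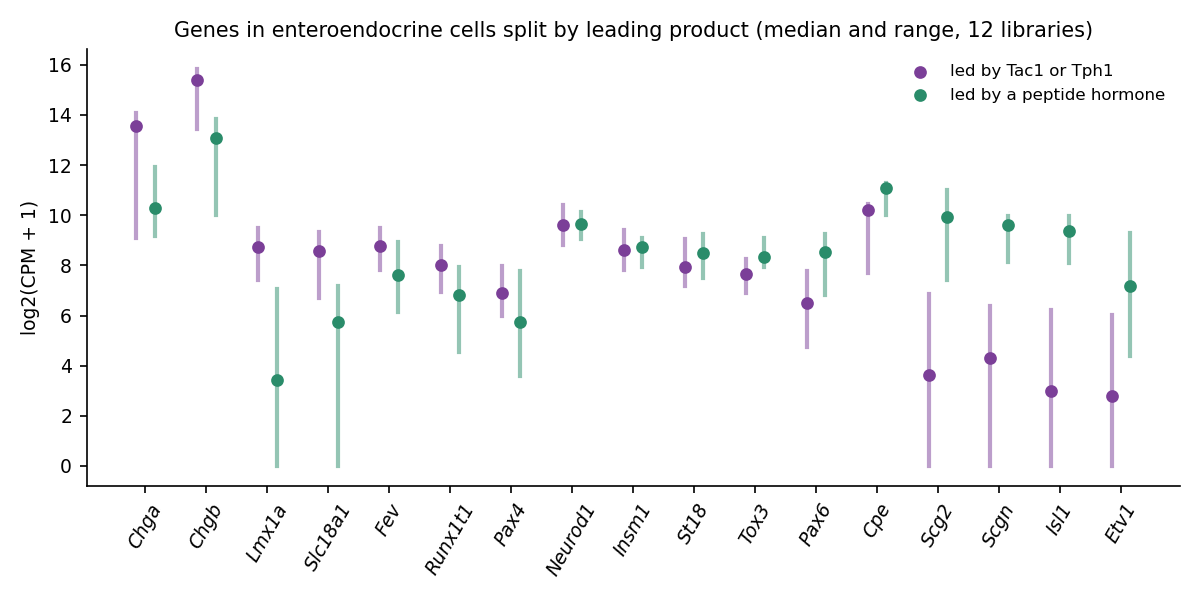
Level of 17 genes (x axis) as log2(CPM + 1) (y axis) in enteroendocrine cells led by Tac1 or Tph1 (purple) and by another peptide hormone gene (green), with points at the median and lines from the lowest to the highest of the 12 libraries with at least 5 cells of each class. Chga, Chgb, Lmx1a and Slc18a1 sit higher in purple, Neurod1 and Insm1 overlap, and Scg2, Scgn, Isl1 and Etv1 sit higher in green. Chga, Chgb, Neurod1 and Scgn are genes of the rule.

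Neurog3 (chr10:62133090-62134763), the factor that starts the lineage and is switched off as cells mature, had a UMI in 130 of the 427 cells. The 130 cells carried a median of 2 products against 4 in the 297 cells without it, at like depth (medians of 12083 and 12449 UMIs), and 11.5% against 1.68% had no product. In the summed counts Sox4, a factor of early lineage cells, lay at 707 against 269 CPM, Pax4 at 162 against 64.3 CPM and Insm1 at 631 against 375 CPM. Hormones were lower, with Gcg at 49.5 against 7948 CPM, Gip at 106 against 3173 CPM and Cck at 95.8 against 1949 CPM. Ghrl was the exception, at 2419 against 1061 CPM. These counts are summed over all libraries and carry no spread between mice. The mix of organs, which differed in Neurog3 and in Ghrl, was not held constant. The 20 cells with no product had the highest Neurog3 level of the 9 groups by leading product with at least 12 cells (1462 CPM) and the highest Sox4 level (1549 CPM).

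Neurog3 was highest in the proximal small intestine in every library. It lay at 588 and 307 CPM in the control mice 1 and 2 and at 687, 643 and 445 CPM in the high fat mice 1, 2 and 3. The distal values were 216 and 165 against 208, 116 and 190 CPM, and the colonic ones 274 and 202 CPM in control and 107 CPM in the high fat mouse 3. Proximal libraries did not overlap those of the other organs. Neurog3 fell by 1.63 on the log2 scale from the proximal to the distal small intestine (SE 0.26, adjusted p = 0.00132, edgeR) and by 1.61 to the colon (adjusted p = 0.00513), and the latter call was lost without high fat mouse 3 (adjusted p = 0.247). The share of cells with a UMI ran from 34.1% to 64.3% in the proximal, 17.1% to 34.9% in the distal and 16.7% to 27.3% in the 3 larger colonic libraries.

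Across all genes tested, the distal small intestine differed from the proximal in 93 genes higher (1.21% of 7666) and 79 lower (1.03%; 2.24% in all), the colon from the proximal small intestine in 282 higher (3.68%) and 300 lower (3.91%; 7.59% in all), and the colon from the distal small intestine in 142 higher (1.85%) and 124 lower (1.62%; 3.47% in all), at an adjusted p under 0.05. The list of lineage transcription factors had 3, 6 and 1 called of 23 tested, with list medians of -0.03, -0.09 and 0.02 against -0.01, -0.03 and -0.03 over all genes. Besides Neurog3, Etv1 rose by 1.56 from proximal to distal (SE 0.29, adjusted p = 0.00452), by 2.72 to the colon (adjusted p = 1.83e-05) and by 1.15 from distal to colon (adjusted p = 0.0304). Neurod2 fell by 1.43 (adjusted p = 0.0337) and by 2.05 in the colon (adjusted p = 0.00782). Foxa1 rose (1.89, adjusted p = 0.0026), and Onecut3 fell (adjusted p = 0.0119), in the colon against the proximal small intestine. The sixth factor called there was Rfx6, a gene of the rule (log2 difference -0.80). Pcsk1n, also of the rule, differed by 2.65 between colon and proximal and by 2.38 between colon and distal small intestine.

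The counts of calls rested in part on single mice. Without high fat mouse 3, whose colonic library was the only one of its diet, 64, 124 and 44 genes were called for the 3 pairs of organs, without control mouse 2 the colon had 376 calls against the proximal and 132 against the distal small intestine, and without high fat mouse 2 the distal small intestine had 73 against the proximal. Etv1 in the distal against the proximal small intestine was not called without high fat mouse 3 (adjusted p = 0.0863), nor were Neurod2, Foxa1 and Onecut3 in the colon against the proximal (0.0533, 0.115 and 0.133). Neurod2 in the distal small intestine was not called without high fat mouse 1, 2 or 3 (0.0744, 0.218 and 0.184), Onecut3 not without control mouse 2 (0.0942), and Etv1 between colon and distal small intestine not without control mouse 1 (0.0573), high fat mouse 2 (0.0779) or high fat mouse 3 (0.692).

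Enteroendocrine cells carried the positional genes of their organ. Of 10 Hox genes tested, 4 were higher in the distal than in the proximal small intestine (list median 0.76), 9 in the colon than in the proximal (8.20) and 7 in the colon than in the distal small intestine (3.99), and none was lower. Over all genes, 1.21%, 3.68% and 1.85% were called higher in the same comparisons. Hoxb9 lay at 0 in the proximal, 23.5 to 155 CPM in the distal and 260 to 451 CPM in the colonic libraries, and Hoxb13 was found in the colon only, at 242, 271 and 156 CPM. With the mouse as a block, Hoxb8 was also called between colon and distal small intestine (adjusted p = 0.0297). Hoxb6, called there at an adjusted p of 0.0489, was not called with that block (0.0819), in DESeq2 (0.0618) or without control mouse 1 (0.0612), high fat mouse 2 (0.074) or high fat mouse 3 (0.936).

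Factors of the proximal gut ran the other way. Onecut2 lay at 294 to 493 CPM in the proximal and at most 32.6 CPM in the other libraries, and it fell by 5.18 to the distal small intestine (SE 0.38, adjusted p = 4.03e-07) and dropped by 5.87 to the colon. Gata4 fell by 2.16 to the distal small intestine (adjusted p = 0.00132) and was listed at 0 in all colonic libraries. Pdx1, a factor of duodenum and pancreas, differed from the rest of the tissue. It lay at 18.7 to 122 CPM in the proximal and 23.2 to 73.9 CPM in the distal enteroendocrine cells, whereas the other cells had 21.7 to 36.9 CPM in the proximal and at most 0.417 CPM in the distal small intestine. Pdx1 thus dropped far more in the other cells, and the signed difference, distal minus proximal, lay 7.86 higher in enteroendocrine than in other cells on the log2 scale (adjusted p = 3.91e-09, edgeR interaction fit). In the colon Pdx1 was found in 1 of 3 enteroendocrine libraries, at 2.89 CPM.

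Among ion channels, Trpa1 (chr1:14872648-14918862) and Piezo2 split the organs. Trpa1 lay at 226 and 791 CPM in the proximal cells of the control mice 1 and 2 and at 44.4, 1345 and 1433 CPM in those of the high fat mice, at 0 to 55.3 CPM in the distal and at 0 in the colonic libraries. It fell by 4.57 from proximal to distal (SE 0.73, adjusted p = 0.00199) and was called lower in the colon than in the proximal small intestine (adjusted p = 0.00103, but 0.0605 without high fat mouse 3); with a robust prior on the spread neither passed (0.112 and 0.0546). With the mouse as a block it was also called between colon and distal small intestine (adjusted p = 0.000282). Piezo2, a touch-sensing channel, was found in the colon only, at 290, 297 and 187 CPM (adjusted p = 5.27e-06 against the proximal and 8.39e-06 against the distal small intestine in edgeR, but 0.173 and 0.25 in DESeq2). Abcc8, a subunit of the channel that couples metabolism to secretion, rose by 1.37 from proximal to distal (adjusted p = 0.00366). Of 10 channels tested, 2 were called in each comparison with the proximal small intestine and 1 between colon and distal small intestine. Over all genes 2.24% were called for distal against proximal, 7.59% for colon against proximal and 3.47% for colon against distal.

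Receptors for microbial short-chain fatty acids were placed unevenly. Ffar3 rose by 2.52 from the proximal to the distal small intestine (adjusted p = 0.0178; 0.1004 without high fat mouse 3), from 0 to 8.53 CPM up to 20.3 to 57.1 CPM, without overlap. Ffar2 lay at 172 to 350 CPM in the proximal, 290 to 460 CPM in the distal and 376 to 612 CPM in the colonic libraries and did not pass the test between organs. In the other cells it lay at 1.74 to 3.91 CPM in the proximal small intestine and 42.4 to 58.7 CPM in the colonic libraries used, so its excess in enteroendocrine cells was smaller in the colon (interaction -3.64, edgeR). Olfr558, an olfactory receptor known to sense short-chain fatty acids, was listed at 0 in the proximal libraries and called in the distal small intestine and the colon (adjusted p = 0.0217 and 0.00339). Both calls were lost without high fat mouse 3 (0.245 and 0.0971), in DESeq2 (0.273 and 0.117) and with a robust prior (0.243 and 0.0758), and the distal one also without control mouse 2 (0.0757) or high fat mouse 2 (0.116).

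The granule and serotonin lists changed little along the small intestine and more in the colon. No gene of the granule list (16 tested) or the serotonin list (6 tested) was called between distal and proximal. In the colon 5 of the 16 granule genes were called against the proximal and 4 against the distal small intestine, with Pcsk1n of the rule in both counts. Over all genes 7.59% and 3.47% were called there, and 2.24% between distal and proximal. Resp18, a granule protein, rose by 2.07 against the proximal (adjusted p = 0.00033) and by 1.40 against the distal small intestine (adjusted p = 0.0162), while the prohormone convertase Pcsk1 fell by 1.62 and 1.55 (adjusted p = 0.00661 and 0.0167) and Scg2 by 2.01 and 2.33 (adjusted p = 0.0226 and 0.0168). Pcsk1 lay at 521 to 1494 CPM in the proximal, 975 to 1367 CPM in the distal and 230 to 552 CPM in the colonic libraries. Syt7, a calcium sensor of exocytosis, rose by 1.79 and 0.95 (adjusted p = 0.000167 and 0.046), and Maob, which breaks down amines, by 1.74 against the proximal small intestine (adjusted p = 0.0122). Without high fat mouse 3, the calls of Pcsk1, Scg2 and Resp18 were lost in each comparison (adjusted p from 0.0533 to 0.382). Without control mouse 2, Resp18 (0.154), Scg2 (0.124) and Syt7 (0.282) were not called against the distal small intestine, nor was Scg2 against the proximal (0.123). Single mice also decided Syt7 against the distal small intestine (0.104 without high fat mouse 2, 0.508 without high fat mouse 3), Pcsk1 there (0.0612 without control mouse 1), Scg2 against the proximal (0.0754 without control mouse 1, 0.0635 without high fat mouse 2) and Maob (0.0741 and 0.211 without control mouse 1 and 2).

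Genes of lipid handling were lower toward the colon. In the colon against the proximal small intestine 8 of 10 lipid absorption genes tested were lower and none higher (list median -2.72 against -0.03 over all genes), and of the PPAR targets and fatty acid oxidation genes 10 of 31 were lower (-0.79). Between distal and proximal these lists had 2 of 10 (-0.90) and 5 of 31 (-0.47) lower. The called genes with the smallest p included Fabp1, the fatty acid binding protein of enterocytes, which fell by 6.67 to the distal small intestine (SE 0.52, adjusted p = 1.31e-06), and Cps1, a urea cycle enzyme, which fell by 7.91 to the colon (SE 0.69, adjusted p = 1.96e-06). Prap1 fell by 2.58 and by more in the colon, Zfpm1 by 1.58 and 3.82 and Creb3l3, a regulator of lipid genes, by 4.05 and 7.69 toward the distal small intestine and the colon. Absorptive cells are the known source of many of these transcripts: Cps1 lay at 2675 to 3709 CPM in the other proximal cells against 277 to 1519 CPM in the enteroendocrine ones. How much of their level in enteroendocrine cells came from other cells was not tested. With the mouse as a block, Retsat and Sar1b were not called in the colon against the proximal small intestine.

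Of the genes that rose distally outside these lists, Car8, a carbonic anhydrase relative, rose by 3.85 (SE 0.33, adjusted p = 1.31e-06), from 12.7 to 83.2 CPM in the proximal to 496 to 1103 CPM in the distal libraries. Naaladl1 (3.40), a peptidase, Krt20 (3.05), a keratin, Map2 (3.06), a microtubule protein, Tnfrsf11b (3.33), a decoy receptor, and Ccl28 (1.72), a chemokine, rose with it. In the colon Nrp2 (4.36), Atp10b (2.86), Hpgds (4.07), which makes prostaglandin D2, and Pof1b (4.35) rose against the proximal small intestine, and Slc5a8 (5.94), a transporter of short-chain fatty acids, Gstm1 (3.52, lost without high fat mouse 3) and Adh1 (2.92) against the distal. Falling genes with the smallest p besides those above were Arg2, Homer2, Alb, Arg1 and Gstk1 in the distal small intestine, and Lhx1, Tm4sf5, E2f2 and Myrfl in the colon against both other organs.

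Whether an organ difference in enteroendocrine cells exceeded that in the other cells was tested with an interaction term. This called 50 genes higher (0.386% of 12956) and 158 lower (1.22%; 1.61% in all) for distal against proximal, 185 (1.43%) and 609 (4.7%; 6.13% in all) for colon against proximal and 86 (0.664%) and 247 (1.91%; 2.57% in all) for colon against distal, where the median over all genes was -0.12 in both colonic contrasts. Without high fat mouse 3 the calls numbered 61, 222 and 75, without high fat mouse 2 the distal contrast had 116, and without control mouse 2 the colonic ones had 375 and 111. Ddc was higher distally in enteroendocrine relative to other cells, by 0.90 (adjusted p = 0.00417; 0.101 without high fat mouse 3) and by 1.79 in the colon against the proximal small intestine (adjusted p = 3.19e-06), with Maob at 1.64 (lost without high fat mouse 2) and 3.13. Ildr1, a lipoprotein receptor, moved less in enteroendocrine cells (57.2 to 92.6 CPM proximal, 129 to 179 CPM colon) beside a steep rise in other cells (2.39 to 3.37 against 90.1 to 215 CPM; interaction -5.20).

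The high fat diet was set against the control diet within each organ. In proximal enteroendocrine cells 5 of 9237 genes were called, all higher on the high fat diet (0.0541%), with 590 at an unadjusted p under 0.05. Those described here are Fabp1, Creb3l3, Coro2a, an actin-binding protein that also takes part in gene repression, and Maoa, which breaks down serotonin. Each was higher in all 3 high fat libraries than in both control libraries.

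Fabp1 (chr6:71199827-71205023) lay at 6.36 and 19.2 CPM in the control mice 1 and 2 and at 893, 315 and 588 CPM in the high fat mice 1, 2 and 3, a log2 rise of 5.47 (SE 0.61, adjusted p = 0.00114, edgeR). Creb3l3 (chr10:81084324-81098874) lay at 3.18 and 2.13 against 38.8, 114 and 94.5 CPM (4.99, SE 0.80, adjusted p = 0.0288). Both are PPAR targets or lipid genes. Coro2a (chr4:46536937-46602202) lay at 9.54 and 14.9 against 155, 86.2 and 121 CPM (3.25, SE 0.52, adjusted p = 0.0210), and Maoa (chrX:16619698-16687818) at 25.4 and 8.53 against 88.7, 99.3 and 98.3 CPM (2.65, SE 0.47, adjusted p = 0.0432). Of these 4 genes only Fabp1 was called under every alternative and without each mouse (adjusted p up to 0.0426). Without control mouse 1 the other 3 had adjusted p from 0.0604 to 0.196, without control mouse 2 from 0.103 to 0.228, without high fat mouse 2 Creb3l3 and Maoa had 0.375 and 0.19, and without high fat mouse 3 Coro2a, Creb3l3 and Maoa had 0.0924, 0.265 and 0.265. With 4 genes of the rule Coro2a and Maoa had 0.0646 and 0.386, and without the doublets Maoa had 0.122. The number of calls was 8, 3 and 2 without high fat mouse 1, 2 and 3, and the proximal library of mouse 1 was the one low in the genes of the rule.

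Fabp1 and Creb3l3 were also higher in the other cells of the tissue on the high fat diet. Fabp1 lay at 33.1 and 114 CPM in the other proximal cells of the control mice and at 1549, 1399 and 1457 CPM in those of the high fat mice, and Creb3l3 at 8.11 and 17.1 against 165, 279 and 219 CPM. In the proximal T and B cells Fabp1 went from 58.5 CPM (109 control cells) to 1374 CPM (174 high fat cells) and Creb3l3 from 9.48 to 227 CPM. The T and B cells as a whole also held absorptive markers, so some may be epithelial or mixed cells, which was not tested. The T and B cells thus carried levels above those of the enteroendocrine cells. The part of RNA from other cells in the rise of both genes was not tested. The diet difference in enteroendocrine cells was not shown to differ from that in the other cells for Fabp1 (interaction 1.10, adjusted p = 0.90) or Creb3l3 (0.98, 0.98).

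Coro2a and Maoa were placed differently. In the other proximal cells Coro2a lay at 201 and 208 CPM in control and 196, 373 and 349 CPM in high fat mice, and Maoa at 189 and 172 against 218, 336 and 273 CPM, so the step was smaller than in enteroendocrine cells. In the T and B cells Coro2a went from 187 to 301 CPM and Maoa from 153 to 279 CPM. The interaction was 2.63 for Coro2a (adjusted p = 0.0501) and 2.00 for Maoa (adjusted p = 0.123), neither past the threshold. Arg2, at 6.36 and 4.27 against 94.2, 75.0 and 67.5 CPM, missed both the diet test (3.90, adjusted p = 0.0545) and the interaction (3.11, adjusted p = 0.0501).

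**Figure D5:**
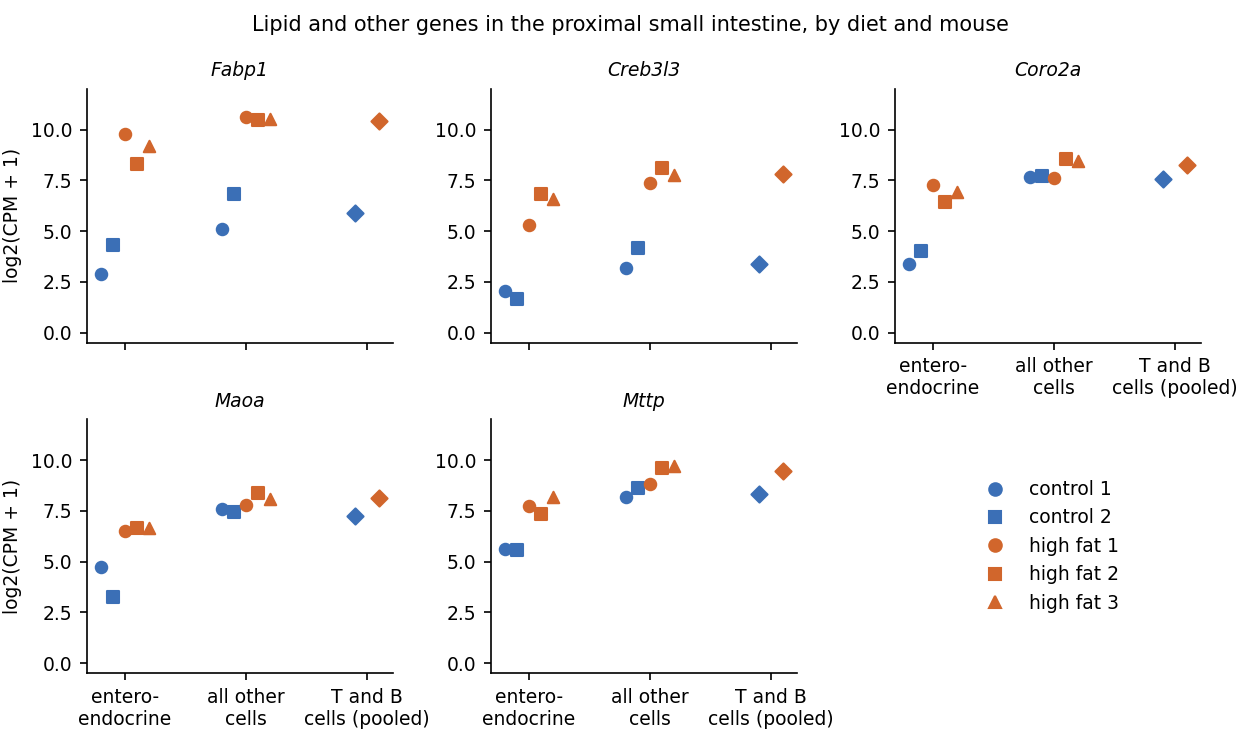
Level of 5 genes in the proximal small intestine as log2(CPM + 1) (y axis) in enteroendocrine cells, all other cells and T and B cells (x axis), with blue for control and orange for high fat diet, 1 point per mouse and pooled diamonds for T and B cells. Enteroendocrine values of the 3 high fat mice lie above both control mice in all 5 panels, and the other cells show a like step for Fabp1 and Creb3l3.

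As lists, the PPAR targets and fatty acid oxidation genes had 3 of 35 called higher in proximal enteroendocrine cells and 33 of 35 above 0, with a median of 0.93 against a median over all genes of -0.0035, and the lipid absorption genes had 1 of 13 called and 12 above 0 (median 2.29). Over all genes 0.0541% were called higher. Mttp, which loads lipid onto chylomicrons, lay at 47.7 and 46.9 against 211, 163 and 293 CPM but did not pass (2.29, adjusted p = 0.0688). The absorptive markers summed to 1500 and 2321 CPM in the control and 3082, 2393 and 2865 CPM in the high fat proximal enteroendocrine libraries. No gene was called lower on the high fat diet; of those with the smallest p, Scd2, a desaturase, lay at 92.2 and 72.5 against 33.3, 9.37 and 0 CPM (adjusted p = 0.15).

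The interaction of diet with cell class in the proximal small intestine called 7 of 14204 genes (0.0493%), 1 higher (0.00704%) and 6 lower (0.0422%). Mgll, which splits monoglycerides, overlapped between diets in the enteroendocrine cells at 124 and 81.1 against 83.2, 165 and 92.6 CPM, while in the other cells it went from 2.70 and 1.00 to 32.9, 28.0 and 24.3 CPM (interaction -3.86, adjusted p = 0.000448). Mgll was called without each mouse in turn, and the other 6 each lost their call without at least 1 mouse. The other lower calls were Akr1c19 (-2.57), Tm4sf4 (-1.73), Slc6a19 (-2.87), Isl1 (-4.09) and Rhob (-1.58), and the higher one was Ltf (8.76), which in the other cells of control mouse 2 stood at 40.8 CPM and elsewhere in the proximal small intestine at most 0.391 CPM. Isl1 lay at 188 and 367 against 305, 124 and 229 CPM in the enteroendocrine cells, where the diets overlapped.

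No hormone gene passed the diet test in any organ. In the proximal small intestine Gcg differed by -2.83 on the log2 scale (adjusted p = 0.536) and Cck by -2.14 (adjusted p = 0.553), with the proximal library of high fat mouse 1, the one low in the genes of the rule, the lowest for each. Averaged over organs with the mouse as a random effect (limma voom), Ghrl differed by -1.96 (adjusted p = 0.59), and 0 of 6533 genes were called (0.0%), with 384 at an unadjusted p under 0.05. Without control mouse 1, control mouse 2 or high fat mouse 1 there were 10, 2 and 2 calls. Among the genes nearest the threshold, Mttp (1.79), Acadl (1.16) and Cpt1a (1.11), genes of lipid export and fatty acid oxidation, were higher and Ccdc117 (-1.03) lower, each at an adjusted p of 0.48 and so not called.

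In distal enteroendocrine cells 0 of 9237 genes were called by diet (0.0%); 238 had an unadjusted p under 0.05. By DESeq2 there were 2 calls. Leaving out control mouse 1 gave 5 calls and leaving out high fat mouse 1 gave 1. The lipid absorption genes had 13 of 13 above 0 (median 0.75) and the PPAR targets 26 of 35 (0.42), against a median over all genes of 0.0066. These list counts carry no test, and no gene of either list was called. The genes with the smallest p were Lyz2 (-7.18, adjusted p = 0.14), a lysozyme, and the T cell proteases Gzma (-4.40) and Gzmb (-5.61), lower on the high fat diet, and Pdk4 (6.47), Igfbp3 (4.04) and Mmp7 (1.98), higher. T cell markers summed to 377 CPM in the distal enteroendocrine cells of control mouse 2 and to 11.1 to 27.0 CPM in the other 4 distal libraries. In the colon 0 genes were called (0.0%); 243 had an unadjusted p under 0.05, the DESeq2 count was also 0, and leaving out high fat mouse 1 gave 1. Insl5 differed there by 2.56 (adjusted p = 0.63). The test of whether the diet difference differed between the distal and proximal small intestine called 0 of the 9237 genes (0.0%; 279 at an unadjusted p under 0.05).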

How the data were processed

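The values were raw UMI counts per gene and cell as the authors deposited them: whole numbers for 17185 genes in 18919 cells. The genome build was mm10, per the submitters' processing notes; the aligner and counter are not given in the sources used here. Of the pairs of gene and library, 47183 held no UMI, 94 were seen in 1 cell and 5035 in 5 cells, so genes seen in few cells of a library seem to have been removed. Diet, organ and mouse were read for each cell from the deposited cell table; what that table numbers control mouse 3 was matched by elimination to control mouse 2 of the sample titles.

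Members and gene lists were chosen with earlier results of these data known. Counts were summed per library over the enteroendocrine cells, and 13 libraries with at least 10 such cells were fitted by the quasi-likelihood test of edgeR 4.0.16 in R 4.3.3 (filterByExpr, TMM scaling), with organ and diet as additive terms for organs and with 1 mean per organ and diet for the diets. The diet averaged over organs was fitted with limma 3.58.1 voom with the mouse as a random effect (correlation 0.1378). Interaction fits used the sums of enteroendocrine and of all other cells with the library as a block; their newer quasi-likelihood setting with a robust prior on the spread was chosen after the default had been seen. Adjusted p is Benjamini-Hochberg over all genes tested, and a gene was called under 0.05. A fitted log2 fold against libraries at 0 depends on the prior count and was not printed as a size. Shares were tested by exact permutation in Python 3.11.15 with scipy 1.17.1, and intervals are exact 95% binomial intervals. Scrublet ran in scanpy 1.11.5. Alternatives included DESeq2 1.42.0.

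The genes named were the hormone list and the 6 genes of the rule, called lineage transcription factors, the 10 called genes with the smallest p in each direction (3, said not to be called, where there were none), and for enteroendocrine against other cells the 15 genes with the highest median ratio among those with at least 20 CPM in every library used; in other lists called genes and up to 4 more. Genes described by leading product or Neurog3 were chosen after their values were seen. Libraries of the same mouse were paired by animal. Correlations of their deviations from the organ means, which still hold any diet difference, ran from 0.0378 to 0.261. The fit with the mouse as a block is given beside a result where it changed the call. On simulated counts the organ fit for distal against proximal recovered 53.7% of 2-fold and 100% of 4-fold changes (7578 genes, 7 false calls), and the proximal diet fit 19.4% and 92.5% (9243 genes, 7 false calls). The distal diet fit recovered 4.48% and 86.6%, and the averaged diet fit 75.8% and 100%, the latter with 21 false calls among 204. Only genes at 20 CPM or more were changed. The simulated libraries had no mouse effect and took their spread from the trend, so recovery in the real data can be lower. Gene coordinates are those of GENCODE vM21 on GRCm38 (310 of 312 names matched), and promoter sequences are from RefSeq on GRCm38.p6 (21 of 21 genes matched). Intervals and shares cover counting error only. Results for some genes are not reported here.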

Additional observations from a re-analysis of the deposited data

Results flagged for a closer look

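The share of enteroendocrine cells in each organ and the level of each hormone gene and Tph1 in the small-intestinal organs were searched for a mouse that stood apart. In 6 of 26 groups of 5 mice tested, 1 library lay far from the other 4 by Dixon's criterion at 95%. Chance flags about 1 in 20 such groups. That rate does not hold for groups with values at 0: the other 4 libraries were at 0 for Iapp and Gal in the proximal cells, and 3 were at 0 for Sst in the proximal and Ucn3 in the distal cells. Gal rested on 2 UMIs. In control mouse 2 these were Iapp at 169 CPM in the proximal and 475 CPM in the distal enteroendocrine cells, and Sst at 3880 CPM in the proximal ones. In the high fat mice they were Ucn3 at 35.7 CPM in the distal cells of mouse 3, Gal at 3.75 CPM in the proximal cells of mouse 2 and Tph1, the 1 low value, at 33.3 CPM in the proximal cells of mouse 1.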

How the results depend on the processing

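Limits: the high fat colon rested on 1 library, 2 mice stood against 3 for the diet, and a library held 12 to 70 enteroendocrine cells, so 2-fold changes by diet within an organ would mostly be missed. Of 6382 values of named genes under the alternatives, 5861 kept their direction and side of the threshold, 392 lost and 129 gained a call, and 0 reversed.

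DESeq2 called 269 genes between distal and proximal, 889 between colon and proximal, 460 between colon and distal, 15 for the proximal and 2 for the distal diet. Requiring 4 genes of the rule gave 271 for distal against proximal, 338 for the interaction of that pair and 1 for the distal diet interaction. The proximal diet had 8 calls each with a minimum of 5 cells, with no filter and with depth as a covariate, the last chosen after seeing the data. With no filter the distal diet had 1 and the averaged diet 2 calls. The averaged diet had 1 call from sums per mouse and 1 from edgeR with 6 groups. The default interaction fit, 1 prior on the spread for all genes, called 136, 47 and 4 genes for the proximal, distal and colonic diet. The cause was not tested.

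Mice of the 2 diets share only a number in the titles, with 2 pairs per organ (correlations from 0.109 to 0.222). With that number as a replicate block there were 17 proximal, 5 distal and 7 averaged diet calls. With the mouse as a replicate block the organ fits called 242, 700 and 382 genes, and beyond the calls named above the block changed that of Avpr1b (colon against proximal, adjusted p = 0.0145).

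The share difference of colon minus proximal was 0.0152 points after thinning, 0.00331 with 4 genes of the rule, 0.00247 without control mouse 1 and 0.241 without high fat mouse 1. That of the diets in the colon was -0.0080 after thinning, -0.0192 with 4 genes, -0.654 without control mouse 1 and -0.849 without high fat mouse 3.

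Leaving out 1 mouse at a time, the calls ranged from 64 to 206 for distal against proximal, 124 to 750 for colon against proximal and 44 to 393 for colon against distal. For the diets they ranged from 2 to 8 in the proximal and 0 to 5 in the distal small intestine, 0 to 1 in the colon, 0 to 2 for the difference between the small-intestinal organs and 0 to 10 averaged. The interactions ranged from 61 to 300, 222 to 854 and 75 to 357 for the organs and from 3 to 10, 0 to 1 and 0 to 0 for the diets. The exact p over 3 organs ranged from 0.0556 to 0.292. The share differences ranged from 0.908 to 1.24 (distal minus proximal), -0.620 to 0.241 (colon minus proximal) and -1.53 to -0.862 (colon minus distal), and by diet from 0.442 to 0.789, 0.619 to 1.49, -0.849 to 1.06 and, over the 3 organs, 0.201 to 1.09. The colonic diet tests were not run with a minimum of 20 cells, with 4 genes of the rule or without control mouse 1, control mouse 2 or high fat mouse 3.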
